A study of Mus musculus with 4 samples.

Results

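Fibroblast growth factors act through receptor tyrosine kinases that switch on the Ras to ERK kinase relay, and the cell answers by transcribing its own brakes. Sprouty and Spred proteins damp the relay upstream of ERK, the phosphatase Dusp6 removes the activating phosphates from ERK, and Etv4 and Etv5 are ETS transcription factors commonly induced by FGF signalling. In muscle stem cells (MuSCs), FGF receptors are linked to exit from quiescence and Spry1 to the maintenance of quiescence.

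The genes examined were the FGF receptors Fgfr1 and Fgfr4, the brakes Spry1, Spry2, Spry4, Spred1 and Spred2, and the feedback and target genes Dusp6, Etv4 and Etv5. They were a named list of 10 genes, found by symbol among 32285 genes in the count matrices, and each symbol matched 1 row. tdTomato+ cells were sorted from hindlimb muscle of C57BL/6J mice aged 3 to 4 months, 14 days after tamoxifen, and profiled by droplet 3′ single-cell RNA-sequencing in 2 control and 2 α-cdKO samples. Control mice carried Pax7CreERT2/+ and Rosa26-tdTomato, and α-cdKO mice carried the same alleles together with Ctnna1 fl/fl and Ctnna3 fl/fl. Tamoxifen was thus given to both genotypes, Cre was driven from the Pax7 locus, and each sample pooled 2 littermates, so that a sample is not a single animal.

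Of 31254 barcodes, 28790 were kept, each with 1000 or more UMIs, 400 or more detected genes and less than 15% of its UMIs from mitochondrial genes. A UMI marks 1 captured RNA molecule. Samples held 5354 to 9786 kept cells and 46099310 to 74921651 UMIs, and any pair of samples shared 9 to 26 cell barcodes. Ctnna1 stood at 91.1 and 74.9 CPM (counts scaled per 1000000 UMIs) in control and 79.3 and 75.6 CPM in α-cdKO myogenic cells, and Ctnna3 had 1 to 7 UMIs per sample. A 3′ tag that lies outside the deleted exons does not report the deletion, so these levels do not check the genotype labels.

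Cells were assigned to states by clustering on variable genes from which the 10 genes had been removed. Of 27122 myogenic cells, 4477 were quiescent-like, 12496 activated-like and 633 cycling-like, and 611 cells with at least 2 Myog UMIs were called Myog-positive. Of 1272 cells in the cluster named by differentiation markers, 709 had fewer than 2 Myog UMIs and entered no state. Taken by cluster only, α-cdKO 1 held 649 such cells with a median of 10421 UMIs. Its Myog-positive cells numbered 280, with a median of 11768 UMIs. Pax7, the transcription factor that marks MuSCs, was at 131 to 213 CPM in quiescent-like and 22.9 to 72.3 CPM in activated-like cells. Sdc4, another marker used to name quiescent-like clusters, went the other way. It stood at 678 to 984 CPM in quiescent-like and 4023 to 4621 CPM in activated-like cells, under the scaling used below. Myod1, which marks activation, was at 83.8 to 123 CPM in quiescent-like and 670 to 1191 CPM in activated-like cells. The study states that isolation and sorting themselves set off a stress response and activation in MuSCs, also in these data. It adds that early activation changes in α-cdKO cells were therefore difficult to identify. The part of isolation in the differences between states was not tested. Top2a, needed for chromosome segregation, was at 719 CPM or more in cycling-like cells and at 51.7 CPM or less in the other 3 states. A further 8196 myogenic cells formed a cluster led by the chaperone genes Dnaja4, Dnaja1 and Hspe1. It had too few of the markers of any state to be named. Its cells entered no state comparison, but they are part of the sums over all myogenic cells. In cycling-like cells of control 1, which numbered 31, S100a8 stood at 8002 CPM against 2.83 CPM or less in the other samples, and 1 cell held most of this neutrophil transcript.

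Promoter sequences were matched for 7 of the 10 genes (RefSeq, GRCm38.p6). Those of Spry1 and Spry2 are shown because these brakes had opposite state patterns, and that of Etv5 because it held the only motif match. Each sequence is the 250 bases before a start site, on the strand of the gene. The Spry1 window is chr3:37639697-37639946 (plus strand), the Spry2 window chr14:105896820-105897069 (minus strand) and the Etv5 window chr16:22439571-22439820 (minus strand). Capitals mark a motif match.
Spry1 promoter: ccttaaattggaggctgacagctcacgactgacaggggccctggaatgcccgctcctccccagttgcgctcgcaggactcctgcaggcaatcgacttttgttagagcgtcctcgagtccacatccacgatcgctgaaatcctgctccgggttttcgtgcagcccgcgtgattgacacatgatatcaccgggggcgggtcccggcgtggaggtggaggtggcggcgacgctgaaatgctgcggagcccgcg
Spry2 promoter: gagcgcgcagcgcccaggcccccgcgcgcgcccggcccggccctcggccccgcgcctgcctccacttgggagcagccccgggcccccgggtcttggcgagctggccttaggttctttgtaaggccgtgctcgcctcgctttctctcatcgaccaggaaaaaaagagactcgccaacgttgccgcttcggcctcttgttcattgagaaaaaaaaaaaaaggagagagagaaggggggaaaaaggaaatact
Etv5 promoter: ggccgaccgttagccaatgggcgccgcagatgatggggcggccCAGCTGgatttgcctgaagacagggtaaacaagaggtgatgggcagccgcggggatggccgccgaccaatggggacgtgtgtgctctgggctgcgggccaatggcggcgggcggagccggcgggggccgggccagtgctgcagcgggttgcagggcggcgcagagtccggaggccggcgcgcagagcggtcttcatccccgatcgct
Both strands were searched for an ETS motif (CCGGAAGT), an AP-1 motif (TGANTCA), a cyclic AMP response element (TGACGTCA), an E-box (CAGCTG) and an RBPJ motif (GTGGGAA). Among 32851 promoters of this length, 2.88%, 6.75%, 1.55%, 13.0% and 5.42% held these motifs, in that order. The 7 genes had 1 match, the E-box of Etv5, which began 207 bases before the start site. The other windows did not hold these letters.

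Among the receptors, Fgfr1 was highest in activated-like cells and Fgfr4 was lowest there. All levels below are CPM after TMM scaling across the state sums, for 4 samples. Fgfr1 (chromosome 8, 25513654 to 25575718 in GRCm38, plus strand) reached 618 and 575 CPM in activated-like cells of control 1 and 2, and 651 and 657 CPM in those of α-cdKO 1 and 2. In quiescent-like cells the same samples gave 241, 242, 237 and 241 CPM. No sample overlapped between these states, and the quiescent-like values spanned only 236.9 to 241.9 CPM. Fgfr1 means were 230 ± 37.9 CPM in Myog-positive and 197 ± 36.9 CPM in cycling-like cells (SD, n = 4 samples). Relative to activated-like cells, Fgfr1 was lower in quiescent-like (log2 fold change -1.38 ± 0.09 SE, edgeR adjusted p = 1.96e-11), cycling-like (-1.66 ± 0.09) and Myog-positive cells (-1.44 ± 0.09). Gm16159, an antisense gene that overlaps Fgfr1 on the opposite strand, is counted as its own row in the files.

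Fgfr4 (chromosome 13, 55152640 to 55168759, plus strand), a receptor typical of the myogenic lineage, was highest in quiescent-like cells, not called different from cycling-like cells under scaling by library size alone (-0.0789, edgeR adjusted p = 0.663), and lowest in activated-like cells. Quiescent-like cells held 145 and 191 CPM in control 1 and 2 and 131 and 161 CPM in α-cdKO 1 and 2. Activated-like cells held 55.2, 39.9, 27.9 and 49.7 CPM in that order of samples. Every quiescent-like value was above every activated-like value, and the difference was 1.90 ± 0.14 on the log2 scale (edgeR adjusted p = 9.88e-11). Cycling-like cells, at 120 ± 11.1 CPM (SD, n = 4), were also above activated-like cells by 1.52 ± 0.15. Fgfr4 in Myog-positive cells was 58.6 ± 21.8 CPM, and its difference from activated-like cells, 0.41 ± 0.16 (edgeR adjusted p = 0.0264), was lost in 8 alternatives, among them the removal of 1 S100a8-high cell from the cycling-like sums (0.33, adjusted p = 0.0674).

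The 3 Sprouty genes did not share a pattern. Spry1 (chromosome 3, 37639947 to 37644598, plus strand) was highest in quiescent-like cells, whereas Spry2 and Spry4 were lowest or near lowest there. Spry1 stood at 198 and 253 CPM in quiescent-like control 1 and 2, and at 193 and 260 CPM in α-cdKO 1 and 2. In activated-like cells these samples gave 130, 99.1, 103 and 113 CPM. Quiescent-like levels were above activated-like levels in 4 of 4 samples without overlap (1.03 ± 0.13 log2, edgeR adjusted p = 2.66e-07). Cycling-like cells (109 ± 16.6 CPM) were not called different from activated-like cells (-0.07 ± 0.14), and under scaling by library size alone the sign turned (0.58, adjusted p = 0.000825).

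Spry2 (chromosome 14, 105891947 to 105896819, minus strand) was higher in activated-like than in quiescent-like cells. It stood at 54.7, 76.1, 121 and 103 CPM in quiescent-like cells of control 1, control 2, α-cdKO 1 and α-cdKO 2. In activated-like cells it stood at 213, 477, 456 and 443 CPM, with control 1 below the other samples by more than their spread. The quiescent-like level was lower by 2.16 ± 0.10 on the log2 scale (a fold of 0.224, edgeR adjusted p = 1.88e-13), in 4 of 4 samples. Myog-positive cells kept 292 ± 87.9 CPM and cycling-like cells 131 ± 46.7 CPM. Spry4 (chromosome 18, 38586247 to 38601415, minus strand) was at 32.95 to 36.3 CPM in activated-like and 25.3 to 33.3 CPM in Myog-positive cells, against 11.4 to 17.1 CPM in quiescent-like and 10.4 to 14.3 CPM in cycling-like cells. Its quiescent-like level was 1.30 ± 0.12 lower than the activated-like level on the log2 scale (log2 fold change -1.30), and its Myog-positive level was not called different (-0.14 ± 0.13, edgeR adjusted p = 0.352).

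The Spred genes, membrane-bound relatives of Sprouty that recruit neurofibromin to Ras, also moved apart. Spred1 (chromosome 2, 117121374 to 117182279, plus strand) was at 287, 267, 242 and 242 CPM in activated-like cells of control 1, control 2, α-cdKO 1 and α-cdKO 2. In quiescent-like cells it was at 64.1, 55.8, 58.5 and 55.3 CPM. The difference was -2.15 ± 0.10 (edgeR adjusted p = 1.08e-13), and Myog-positive cells were also below activated-like cells (-2.47 ± 0.11). Quiescent-like levels of Spred1 were above Myog-positive levels by 0.32 ± 0.12 (edgeR adjusted p = 0.0224), a difference that turned to -0.45 when states were taken by cluster only. Spred2 (chromosome 11, 19924375 to 20024026, plus strand) was at 30.7 to 34.8 CPM in quiescent-like and 15.7 to 21.9 CPM in activated-like cells, higher in the former by 0.88 ± 0.14 (edgeR adjusted p = 7.24e-06). Spred2 in Myog-positive cells, at 11.3 ± 3.76 CPM, rested on 121 UMIs in all.

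Dusp6 (chromosome 10, 99263231 to 99267489, plus strand) was lowest in quiescent-like cells, at 5.76, 11.5, 14.6 and 15 CPM in control 1, control 2, α-cdKO 1 and α-cdKO 2. It stood at 26.6, 40.8, 41.6 and 42.2 CPM in activated-like cells and at 19.2, 47.5, 62.2 and 46.9 CPM in Myog-positive cells, in that order. Control 1 was the lowest sample in each state. The quiescent-like level was 1.72 below the activated-like level on the log2 scale (-1.72 ± 0.14, edgeR adjusted p = 8.46e-10).

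Etv4 (chromosome 11, 101769742 to 101785371, minus strand) had its highest level in cycling-like cells. It reached 10.2, 9.89, 13.8 and 17.5 CPM in control 1, control 2, α-cdKO 1 and α-cdKO 2, from 8, 18, 101 and 45 UMIs. The sums over all myogenic cells held 23, 35, 167 and 126 UMIs of Etv4 in that order, so many of its UMIs lay outside this state. Activated-like cells held 0.280 to 0.606 CPM from 38 UMIs in all, and Myog-positive cells of control 1 had 0 UMIs. Cycling-like cells were above activated-like cells by 4.71 ± 0.32 on the log2 scale (edgeR adjusted p = 3.22e-11) and above quiescent-like cells, whose difference from them was -2.93 ± 0.31, with no overlap in either case. Etv5 (chromosome 16, 22381309 to 22439719, minus strand) varied less by state. Its means were 20.4 ± 8.85 CPM in cycling-like, 18.8 ± 8.37 CPM in quiescent-like, 13.1 ± 3.11 CPM in activated-like and 12.5 ± 3.63 CPM in Myog-positive cells. Quiescent-like exceeded activated-like levels by 0.49 ± 0.15 (edgeR adjusted p = 0.00498), but the samples overlapped and the call was lost without α-cdKO 1 (adjusted p = 0.0768) or α-cdKO 2 (adjusted p = 0.126).

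**Figure D1:**
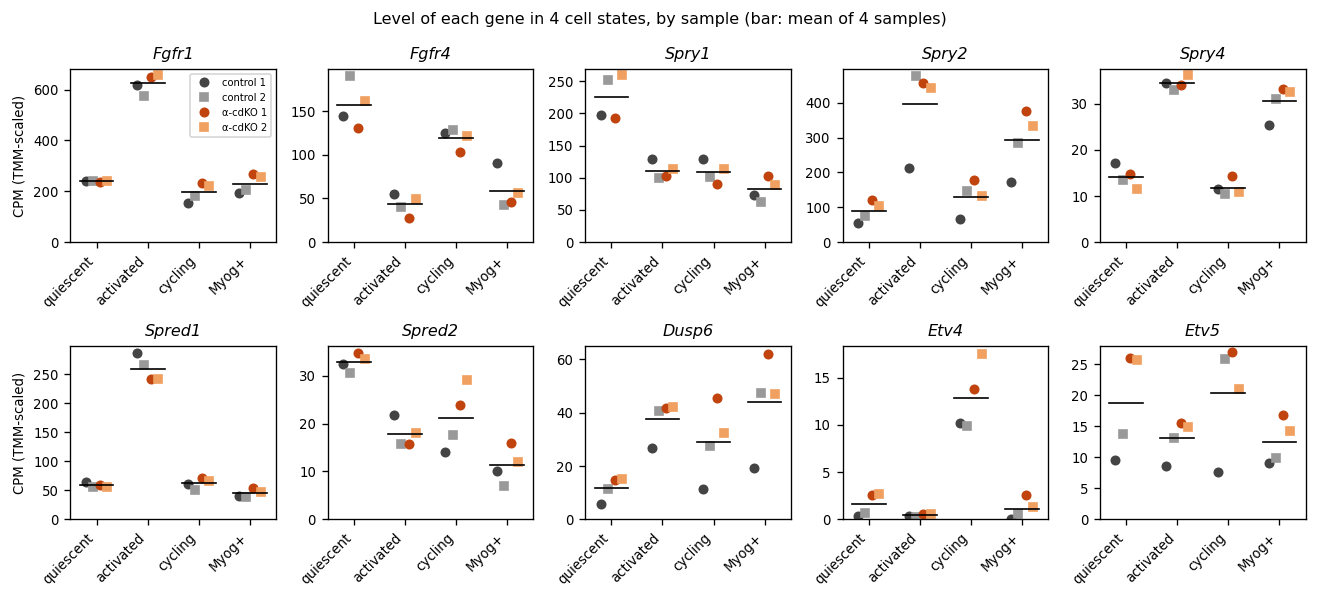
Level of each gene (CPM after TMM scaling, linear axis from 0) in quiescent-like, activated-like, cycling-like and Myog-positive cells, with 1 point per sample and a bar at the mean of 4 samples. Fgfr1 and Spred1 stand apart in activated-like cells, Etv4 in cycling-like cells, and Spry1, Spred2 and, under this scaling but not by library size alone, Fgfr4 are highest in quiescent-like cells.

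Across the list, 3 genes had their highest mean in quiescent-like, 4 in activated-like, 2 in cycling-like and 1 in Myog-positive cells. Scaled by library size alone these numbers were 2, 3, 3 and 2, since Fgfr4 was then highest in cycling-like (127 to 165 CPM over samples, against 120 to 174 CPM in quiescent-like) and Spry4 in Myog-positive cells. Between quiescent-like and activated-like cells, 5 of 10 genes were higher and 5 lower, where 75.0% of 12063 genes tested were called. Cycling-like against activated-like cells gave 3 higher and 5 lower (68.0% of all genes called), and Myog-positive against activated-like cells 2 higher and 5 lower (66.9%). Quiescent-like against cycling-like cells gave 4 higher and 3 lower (49.5%). Quiescent-like against Myog-positive cells gave 5 higher and 3 lower (59.1%), and cycling-like against Myog-positive cells also 5 higher and 3 lower (52.0%). Scaled by library size alone, the split of higher and lower calls among the 10 genes was 5 and 4 for cycling-like against activated-like, 3 and 2 for Myog-positive against activated-like and 1 and 5 for quiescent-like against cycling-like cells. It was 3 and 3 for quiescent-like against Myog-positive and 6 and 2 for cycling-like against Myog-positive cells, and stayed at 5 and 5 for quiescent-like against activated-like cells. The shares of all genes given above belong to TMM scaling and are no background for these splits. Under library size alone the median of all genes moved by -0.45 to 0.64 on the log2 scale. In Myog-positive against activated-like cells the lower calls of Spry1, Spry2 and Spred2 were lost both under this scaling and with states by cluster only, and Dusp6 was called higher in both (0.57 and 0.36). Most genes differed between states, so a call as such does not set these 10 apart. States were drawn from other genes of the same cells, and the p-values do not include the uncertainty of that assignment.

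Relative to activated-like cells, cycling-like cells had lower Spry2 (-1.60 ± 0.11), Spry4 (-1.49 ± 0.15) and Spred1 (-2.03 ± 0.11) and higher Etv5 (0.65 ± 0.17). Etv5 was higher in 3 of 4 samples, with overlap between the states. Its call was lost without α-cdKO 1 (0.54, edgeR adjusted p = 0.0515). Dusp6 (-0.34 ± 0.15, edgeR adjusted p = 0.0464) was near the threshold and turned to 0.29 by library size alone, and Spred2 (0.35 ± 0.17, edgeR adjusted p = 0.0728) was not called.

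Some neighbouring levels in each order were not called different. Quiescent-like and Myog-positive levels of Fgfr1 differed by 0.07 ± 0.09 on the log2 scale (edgeR adjusted p = 0.557). Quiescent-like and cycling-like levels of Spred1 differed by -0.12 ± 0.11 (adjusted p = 0.385) and those of Etv5 by -0.16 ± 0.17 (adjusted p = 0.466), neither of which was called by edgeR. Dusp6 in Myog-positive and activated-like cells differed by 0.19 ± 0.14 (edgeR adjusted p = 0.241).

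**Figure D2:**
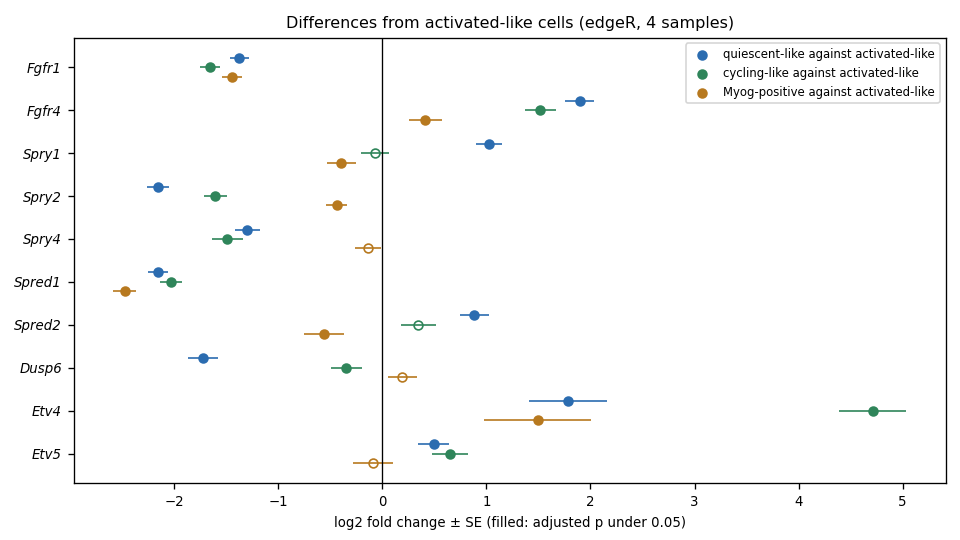
Log2 fold change ± SE of each gene in quiescent-like, cycling-like and Myog-positive cells relative to activated-like cells (edgeR over sums of 4 samples), with filled points for adjusted p under 0.05. Etv4 in cycling-like cells lies farthest to the right, at 4.71, and Spred1 in Myog-positive cells farthest to the left, at -2.47.

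The chaperone-led cluster lay between quiescent-like and activated-like cells for several genes, on CPM of summed UMIs without TMM scaling. Its 4 samples held 350 to 442 CPM of Fgfr1, 64.8 to 94.4 CPM of Fgfr4, 141 to 167 CPM of Spred1 and 130 to 305 CPM of Spry2. On the same scale, quiescent-like cells held 216 to 234, 120 to 174, 49.5 to 62.4 and 53.2 to 110 CPM of these genes. Activated-like cells held 471 to 529, 22.3 to 44.8, 193 to 233 and 173 to 390 CPM, in the same order of genes. Spry1 in this cluster was at 77.1 to 94.3 CPM. When these cells were added to the activated-like sums, an alternative chosen after the data were seen, the Myog-positive difference of Fgfr4 turned to -0.26 (edgeR adjusted p = 0.120).

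Within quiescent-like cells, each sample was divided at its median level of Fos, an immediate-early gene. Spry1 was higher in the Fos-high cells of all 4 samples, with ratios of 1.71, 1.47, 1.51 and 1.36 in control 1, control 2, α-cdKO 1 and α-cdKO 2. Dusp6 ratios were 1.70, 1.62, 1.12 and 1.27, from 30 to 122 UMIs per sample, and Spry4 ratios were 1.04, 1.73, 1.46 and 1.24, so that these 3 genes were above 1 in each sample. Fgfr1 ratios lay between 0.91 and 1.06 and those of Fgfr4 between 0.92 and 1.20. Fos-high cells also had higher median UMIs in each sample (5147.5 to 7399 against 4819 to 6710), whose part in these ratios was not tested, and no test was run on this division.

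Shares of cells with at least 1 UMI were compared after thinning each cell to 2000 UMIs, with exact binomial 95% intervals that cover counting error only. Fgfr4 was seen in 23.7% of quiescent-like cells (22.4 to 24.99%), in 5.97% of activated-like cells (5.56 to 6.40%), and in 2.34% of endothelial-like cells (0.641 to 5.88%) in the same libraries. Spry1 was seen in 30.7% of quiescent-like cells (29.4 to 32.1%) and 11.9% of activated-like cells, and in 20.5% of endothelial-like cells (14.7 to 27.3%), so that the activated-like share was not above the endothelial-like share. Spred1 was seen in 28.4% of activated-like and 9.40% of quiescent-like cells, and in 11.7% of endothelial-like cells (7.29 to 17.5%). Spred2 was commoner in endothelial-like (14.035%, 9.20 to 20.2%) than in quiescent-like cells (6.66%, 5.93 to 7.44%). Spry4 was seen in 11.7% of endothelial-like and 5.20% of Myog-positive cells, and Dusp6 in 9.94% and 10.07%. Spry2 (21.05% against 37.5% of activated-like cells) went the other way. So did Etv5 (2.92% against 5.86% of cycling-like cells), with overlapping intervals. The part of endothelial transcripts in the state levels was not tested. Fgfr1 was seen in 54.9% of activated-like cells (54.0 to 55.8%) and 32.7% of quiescent-like cells, and in 25.1% of endothelial-like cells (18.8 to 32.3%). Etv4 was seen in 2.93% of cycling-like cells (1.75 to 4.59%) and in 0 of 171 endothelial-like cells, whose limit (1.75% from 3 counts, 2.13% as the exact upper bound) overlaps that interval. The immune-like cluster raised 10 of 10 mature-muscle markers beside its own and was not used as a background level. Median UMIs before thinning were 5833 in quiescent-like, 7188 in activated-like, 15734 in cycling-like, 13984 in Myog-positive and 7574 in endothelial-like cells. The highest share lay in the state of the highest CPM for 8 of 10 genes, and for Fgfr4 it lay in cycling-like cells (mean of samples 28.3% against 23.9% in quiescent-like cells).

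**Figure D3:**
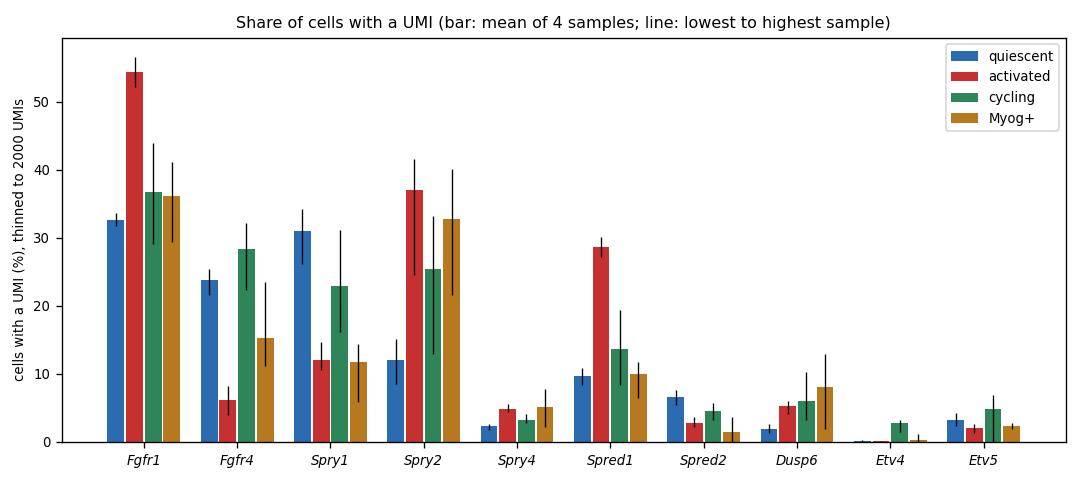
Percentage of cells with at least 1 UMI of each gene after thinning to 2000 UMIs per cell, for 4 states; bars are means of 4 samples and lines run from the lowest to the highest sample. Activated-like bars are tallest for Fgfr1, Spry2 and Spred1, and the activated-like bar of Fgfr4 is the lowest of its 4.

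The comparison of genotypes asked whether loss of α-catenins changed these genes within a state. None of the 10 genes was called by edgeR in all myogenic cells (0.171% of 14622 genes called), in quiescent-like cells (0.164% of 11580), in activated-like cells (0.171% of 12293) or, of the 9 tested, in Myog-positive cells (0.0228% of 8789). At an unadjusted edgeR p under 0.05 there were 3, 4, 0 and 3 of these genes. Over all genes tested the counts were 1039 of 14622, 944 of 11580, 832 of 12293 and 509 of 8789. In Myog-positive cells the 3 were Spry2 (0.62 ± 0.22 on the log2 scale), Spry1 (0.50 ± 0.20) and Fgfr1 (0.40 ± 0.16). With 2 samples per genotype, a gene that was not called is not shown to be alike in both. The levels that follow were scaled within each cell set and so differ slightly from those above.

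Etv5 in quiescent-like cells came nearest to a call. It stood at 9.04 and 12.7 CPM in control and 23.9 and 23.5 CPM in α-cdKO samples, which did not overlap, a difference of 1.12 ± 0.20 on the log2 scale (edgeR adjusted p = 0.0960). Etv4 stood at 0.361 and 0.627 CPM against 2.39 and 2.48 CPM (2.24 ± 0.55, edgeR adjusted p = 0.270), from 2, 4, 18 and 22 UMIs. Spry2 stood at 51.5 and 70.4 CPM against 111 and 94.5 CPM (0.75 ± 0.18, edgeR adjusted p = 0.239). Dusp6 stood at 5.42 and 10.7 CPM against 13.4 and 13.7 CPM (0.74 ± 0.28, edgeR adjusted p = 0.527). The receptors differed little: Fgfr1 was at 227 and 224 CPM in control and 217 and 221 CPM in α-cdKO samples (-0.04 ± 0.12), and Fgfr4 differed by -0.22 ± 0.17. Spry1 (-0.02 ± 0.17), Spry4 (-0.25 ± 0.21), Spred1 (-0.10 ± 0.15) and Spred2 (0.09 ± 0.15) were not called either.

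Etv5 was higher in both α-cdKO samples than in both control samples in each of the 4 cell sets, by 0.70 ± 0.19 in all myogenic, 0.50 ± 0.23 in activated-like and 0.68 ± 0.34 in Myog-positive cells, none of them called by edgeR. In all myogenic cells 5 of 10 genes had groups that did not overlap, against 38.9% of all genes. The counts were 6 of 10 in quiescent-like cells (40.3% of all genes), 5 of 10 in activated-like cells (36.7%) and 7 of 9 in Myog-positive cells (35.1%). Control 1 was the lower control for Spry2, Dusp6 and Etv5 in all 4 cell sets, and for activated-like Spry2 it stood at 170 CPM against 389 CPM in control 2. Without control 2, Spry2 was called in quiescent-like (0.99, edgeR adjusted p = 0.0290), activated-like (1.10, adjusted p = 0.00806) and Myog-positive cells (1.03, adjusted p = 0.00810), Etv5 in quiescent-like cells (1.39, adjusted p = 0.0253) and Dusp6 in Myog-positive cells (1.49, adjusted p = 0.0141), whereas without control 1 the activated-like difference of Spry2 turned to -0.09. The difference between the quiescent-like and activated-like effects of genotype was not called for any of the 10 genes (0.00763% of 13114 genes called), and for Etv5 it was 0.65 ± 0.23 (edgeR adjusted p = 0.975).

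**Figure D4:**
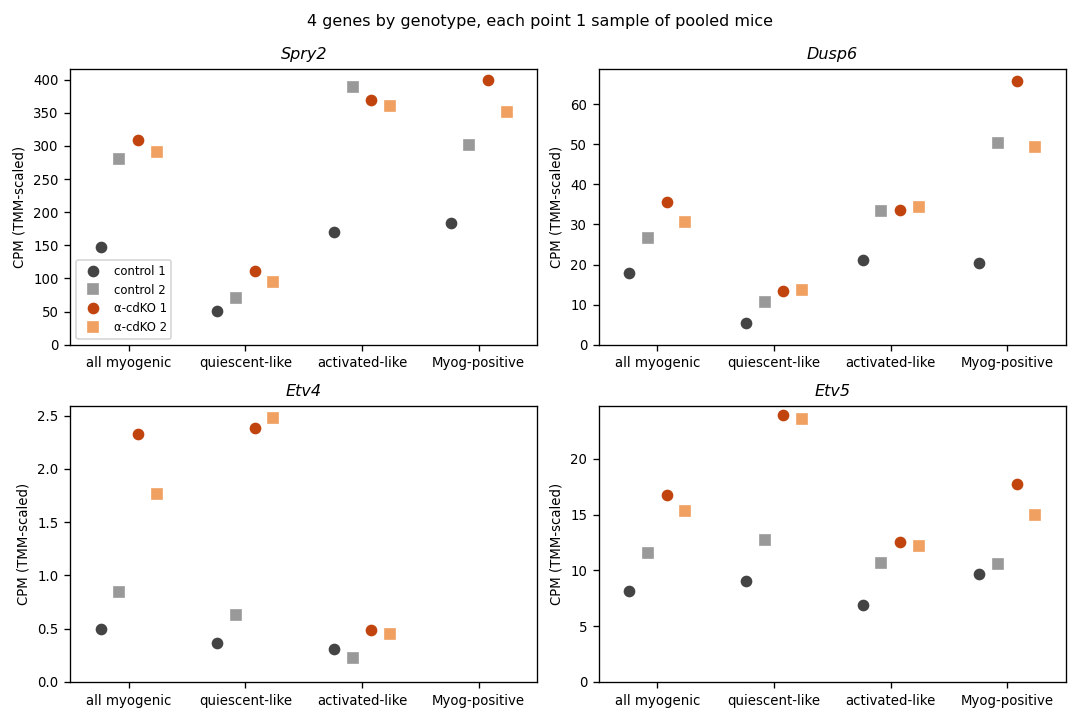
Spry2, Dusp6, Etv4 and Etv5 (CPM after TMM scaling within each cell set, linear axis from 0) in control and α-cdKO samples, with 1 point per sample of 2 pooled mice; Etv4 was not tested in Myog-positive cells. Quiescent-like Etv5 lies at 9.04 and 12.7 CPM in control and 23.9 and 23.5 CPM in α-cdKO samples, and control 1 is the lowest sample for Spry2, Dusp6 and Etv5 in each cell set.

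Over all myogenic cells Etv4 was at 0.5 and 0.848 CPM in control and 2.33 and 1.76 CPM in α-cdKO samples (1.61 ± 0.34, edgeR adjusted p = 0.336). The samples also held different shares of cycling-like cells, the state where Etv4 was highest, at 0.587% and 1.86% of myogenic cells in control (31 and 83 cells) and 4.22% and 1.53% in α-cdKO samples (397 and 122 cells). These shares overlapped between genotypes, and α-cdKO 2 was below control 2. Fos in quiescent-like cells was at 3886 and 4300 CPM in control and 2421 and 3613 CPM in α-cdKO samples. In quiescent-like cells the summed level of 7 endothelial markers, mostly Pecam1, was 33.1 and 16.1 CPM in control against 25.1 and 16.5 CPM in α-cdKO samples. That of 8 immune markers was 6.72 to 7.12 CPM. In the same order, 6 mural markers were higher in α-cdKO samples without overlap (253 and 289 against 439 and 319 CPM). Glial (4.29 and 6.18 against 3.82 and 3.30) and tenocyte sums (15.1 and 16.1 against 11.2 and 12.4) were lower. Fibroblast (746 and 854 against 745 and 1321) and mature-muscle sums (208 and 582 against 434 and 204) overlapped. The mural list shares Notch3 with the markers used to name quiescent-like clusters. Its sum reached 2492 to 2806 CPM in Myog-positive cells, so it is not specific to mural cells. The part of these sums in the genotype values was not tested. Levels of the 10 genes in cycling-like cells were not tested by genotype, since control 1 had 31 such cells.

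Of 64 other genes of the pathway, 54 were tested between states. Between quiescent-like and activated-like cells 20 were higher and 23 lower (79.6% called, against 75.0% of all genes), with a median log2 fold change of -0.15 against 0.22 over all genes. The cyclin gene Ccnd1 (2.28 ± 0.17), the immediate-early gene Egr1 (2.11 ± 0.09) and the adaptor gene Gab1 (1.95 ± 0.14) were higher in quiescent-like cells. Fosl1, an AP-1 component (-4.18 ± 0.17), Spsb1 (-3.34 ± 0.16) and Sdc4, a heparan sulphate co-receptor (-2.44 ± 0.16), were lower. Fosl1 was among the markers that named activated-like clusters, so its fall was partly set by how states were drawn. The genes of this pathway list were not removed before clustering, so others of them could also help to draw the states. The shares called carry that limit in each state comparison. Sdc4 was among the markers for quiescent-like clusters and went against them. Fosl1 ranged from 12.0 to 27.4 CPM in quiescent-like and 263 to 441 CPM in activated-like samples.

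Cycling-like against activated-like cells gave 19 higher and 23 lower (77.8% called, against 68.0% of all genes), led by Ccnd1 (2.36 ± 0.18), the glypican gene Gpc1 (1.82 ± 0.15) and the phosphatase gene Dusp8 (1.40 ± 0.12) on the higher side and Sdc4 (-2.86 ± 0.16), Spsb1 (-2.50 ± 0.16) and Ier3 (-1.99 ± 0.19) on the lower. Myog-positive against activated-like cells gave 16 higher and 22 lower (70.4%, against 66.9% of all genes). There Dusp4, another ERK phosphatase, rose by 3.43 ± 0.25, from 1.54 to 3.12 CPM in activated-like to 20.3 to 25.3 CPM in Myog-positive samples. Gab1 (2.16 ± 0.16) and the kinase gene Map2k2 (1.97 ± 0.11) also rose, while Ier3 (-3.29 ± 0.21), Sdc4 (-2.93 ± 0.16) and Spsb1 (-2.70 ± 0.16) fell. Among the ligands, chosen for mention after their values were seen and at low levels, Fgf2 was lower than in activated-like cells in quiescent-like (-2.03 ± 0.22), cycling-like (-1.62 ± 0.26) and Myog-positive cells (-3.43 ± 0.36), and Fgf7 was higher in Myog-positive cells (5.62 ± 0.46). None of the 64 genes was called by genotype by edgeR in any of the 4 cell sets.

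The genes whose levels were most like each of the 10 were ranked by Pearson correlation over 16 sums (4 states by 4 samples) among 4539 genes, as a description, since the sums share libraries and states. Fbxo11 was nearest to Fgfr1 (r = 0.992), Sh3d19 to Fgfr4 (0.934), Zfhx4 to Spry1 (0.963), Oser1 to Spry2 (0.968) and Armcx3 to Spry4 (0.969). Clic4 was nearest to Spred1 (0.981), Ncald to Spred2 (0.938) and Pias2 to Dusp6 (0.964). Over the same sums Fgfr1 and Spred1 had r = 0.942, and Fgfr4 and Spry2 had r = -0.916.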

How the data were processed

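Droplet 3′ single-cell RNA-sequencing was performed on sorted tdTomato+ cells, 2 samples per genotype. The authors deposited UMI counts per gene and cell, made with Cell Ranger 7.1.0 on GRCm38, and the submitters' processing notes also name Seurat 4.0.3. From these counts, cells were filtered as in the study, log-normalised and clustered in Seurat 5.3.0 (2000 variable genes without the 10 genes, 30 principal components, Harmony correction by sample re-implemented in R, Louvain resolution 0.2). Clusters were named by at least 3 markers raised at least 1.5-fold. Doublets were kept, with their removal as an alternative.

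Counts were summed per sample and state and tested with the quasi-likelihood method of edgeR 4.0.16 (TMM scaling, genes kept by filterByExpr, Benjamini-Hochberg adjustment over all genes tested, called under 0.05). State fits held sample as a term, and genotype fits compared 2 with 2 samples without a block. Replicates are separate pools of littermates, and they differed beyond sampling noise (chi-square per degree of freedom 76.3 and 76.8). Fits were tested on simulated data. The 10 genes and the lists were chosen with earlier results of these data known. All 10 genes were tested and counted in each comparison whatever their values; descriptions with no test name those chosen after their values were seen, and of the pathway list the 3 largest called changes in each direction at 10 CPM or more. Alternatives were DESeq2 1.42.0, other scaling, filters, clustering and state rules, and each sample left out. Depth per sample was 46099310 to 74921651 UMIs. Low levels rest on few UMIs, whose numbers are given beside some of them only. They are not given for Etv5, Spry4, Fgf2 and Fgf7.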

Additional observations from a re-analysis of the deposited data

How the results depend on the processing

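Scaling by library size alone moved the median of all genes by 0.19 (quiescent-like against activated-like), 0.64 (cycling-like against activated-like), 0.38 (Myog-positive against activated-like), -0.45 (quiescent-like against cycling-like), -0.19 (quiescent-like against Myog-positive) and 0.26 (cycling-like against Myog-positive) on the log2 scale, and differences are to be read relative to it. Under it these turned sign: Spry1 0.58 and Dusp6 0.29 (cycling-like against activated-like), Spry4 0.24 and Etv5 0.29 (Myog-positive against activated-like), Fgfr1 -0.17, Fgfr4 -0.0789 and Spry4 -0.25 (quiescent-like against cycling-like), and Fgfr1 -0.12 (quiescent-like against Myog-positive) and 0.0540 (cycling-like against Myog-positive). The number of genes with the highest mean in Myog-positive cells became 2. Beside these, calls lost under this scaling were Spry1 -0.01, Spry2 -0.06 and Spred2 -0.18 (Myog-positive against activated-like), Spred2 0.09 (quiescent-like against cycling-like), Spred1 0.13 and Etv5 0.39 (quiescent-like against Myog-positive) and Dusp6 -0.28 (cycling-like against Myog-positive); calls gained were Spred2 0.99 (cycling-like against activated-like), Dusp6 0.57 (Myog-positive against activated-like), Spred1 -0.57 and Etv5 -0.61 (quiescent-like against cycling-like) and Spry1 0.59 (cycling-like against Myog-positive). With states by cluster only, the turned values were Etv5 0.25 (Myog-positive against activated-like), Fgfr1 -0.20, Spred1 -0.45 and Etv4 -0.00752 (quiescent-like against Myog-positive), and Spry1 -0.0427 and Spred1 -0.30 (cycling-like against Myog-positive). With at least 1 Myog UMI, quiescent-like against Myog-positive turned for Fgfr1 -0.0919, Spred1 -0.0164 and Etv4 -0.16. Resolution 0.4 turned Spred1 to 0.10 (quiescent-like against cycling-like). Adding the chaperone-led cluster turned Fgfr4 to -0.26 (Myog-positive against activated-like). Quiescent-like Spry1 by genotype turned to 0.00496 with no low-count filter and 0.0245 without integration. The causes were not tested.

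Genes called by genotype depended on the setting. In all myogenic cells (25 as reported), there were 122 with DESeq2, 12 with no low-count filter, 13 with the replicate block and 176 with the crossed block, with 1 of the 10 genes called (Etv4) by DESeq2 and by the crossed block. In quiescent-like cells (19) there were 7 by library size, 279 with no filter (3 of the 10 genes: Spry2, Etv4, Etv5), 7 at 2000 UMIs, 9 without the top doublet scores and 10 with the lists left out of clustering. In activated-like cells (21) there were 63 with DESeq2, 1 with no filter and 45 with the chaperone-led cluster. In Myog-positive cells (2) there were 9 with DESeq2, 95 with no filter, 4 with the replicate block, and 1 by library size, by cluster only and at 1 Myog UMI. Replicate numbers did not pair the samples (correlations of deviations from -0.191 to 0.0183), and the crossed pairing was added after seeing the data. Without the sample block, quiescent-like against cycling-like calls among the 10 genes fell to 4. Shares not thinned were highest in the state of the highest CPM for 4 genes.

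Leaving out each sample in turn gave 0 to 54 genes called by genotype in all myogenic, 16 to 68 in quiescent-like, 1 to 104 in activated-like and 7 to 233 in Myog-positive cells, and 0 to 2, 0 to 1 and 0 to 2 of the 10 genes in the last 3 sets. The lone sample of a genotype was then assumed to vary like the other group. Between quiescent-like and cycling-like cells, 4 to 7 of the 10 genes were called, where 4693 to 5908 of all genes were called. Of the 10 genes, 1 to 2 had their highest mean in cycling-like cells and 0 to 1 in Myog-positive cells. Values that turned sign ranged, between states, from -0.0122 to 0.22 (Fgfr1) and -0.0731 to 0.89 (Etv4) for quiescent-like against Myog-positive, -0.32 to 0.0559 (Etv5) for quiescent-like against cycling-like and -0.0442 to 0.31 (Dusp6) for Myog-positive against activated-like cells. By genotype they ranged from -0.0694 to 0.19 (Fgfr1), -0.22 to 0.0331 (Spry1), -0.12 to 0.11 (Spry4) and -0.14 to 0.21 (Spred2) in all myogenic cells, -0.24 to 0.18 (Spry1) and -0.21 to 0.0190 (Spred1) in quiescent-like cells, -0.76 to 0.0756 (Fgfr4), -0.24 to 0.12 (Spry1), -0.0931 to 1.10 (Spry2) and -0.35 to 0.10 (Spred2) in activated-like cells, and -0.84 to 0.26 (Fgfr4) in Myog-positive cells. With 2 samples per genotype, differences of low genes such as Etv4 are limited by their UMIs.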
